A study of Anas platyrhynchos with 2 samples.

Results

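Structural copies are genes with the same exon plan that lie near each other on a chromosome. Among 11383 genes counted in the Fujian Longyan Shan-ma duck (Anas platyrhynchos), 71 met the rule. They were 0.909% of the 7815 genes that have at least 4 exons and lie on larger autosomes, that is, autosomes whose last gene ends at 10 Mb or beyond. A copy had to share its number of exons, and the length of every exon except the first and the last, with another gene on the same chromosome, with at most 500 kb between them. The rule used no read counts. The 71 copies formed 34 arrays.

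RNA of adult ducks was sequenced in 2 libraries, beside a near telomere to telomere assembly of the genome. The label of library B names brain, eye, skin, muscle, ovary, kidney, spleen, heart and lung, and that of library A names pancreas, liver, intestine, stomach and blood. The series text speaks instead of 1 adult female and 1 adult male, with testis in place of ovary in the male, and of all tissues pooled in equal amounts. The labels name no testis and no animal, so values are given by library, with no claim on organs or sexes. Alignment names in the headers of the count tables also differ from the library names in the labels, so which table is library B rests on the deposit's own pairing. If the tables were exchanged, every direction between the libraries would turn. The libraries were nearly alike for most genes. Over 11256 genes compared, the median absolute log2 ratio of B over A was 0.0749, and 0.755% were at least 2-fold apart. Like values of a copy in both libraries are therefore common to most genes and are not read as agreement across organs. Whether the libraries hold different organs was not tested.

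Genes are duplicated side by side when chromosomes misalign and exchange unequal stretches, and the copies then start with the same exons and introns. Introns and terminal exons with their untranslated parts usually change in length faster than coding exons, which are held by the reading frame. A copy can keep its level, lose it or be expressed elsewhere, and clusters of duplicated genes such as the globins are classic cases of copies that differ widely in output. Copies that have stayed nearly identical are hard to measure with short reads, because a read that fits both copies equally well cannot be placed.

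The IDs of the count tables come without gene names, and 0 of them matched a reference table of 26024 duck genes. Arrays are therefore given by chromosome, position on the study's own assembly and exon number, with no role for any gene. Library B held 41792653 counted reads and library A 20047449, and each label has 1 library, so there is no replicate and no p-value. Level means RPKM, computed here as counted reads divided by the summed exon length of the gene and by library depth. Intervals are exact 95% intervals from read pairs. They cover counting error only, since PCR copies of a molecule could not be told from other molecules. A count of 0 was given a floor of 3 reads. This is 0.0715 CPM (reads scaled to library depth) in library B and 0.150 CPM in library A. Mates of a pair count separately, so a count of 0 can allow a level above this floor. With the recorded settings a read placed equally well at several sites is not counted. The sequences of the copies were not compared, and the effect of that setting on their counts was not tested.

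Most arrays were pairs. There were 32 pairs, 1 array of 3 genes and 1 of 4, on 16 of the 23 larger autosomes. Chromosomes 2 and 8 had 6 arrays each and chromosomes 1 and 4 had 4 each. Relative to their genes of at least 4 exons, chromosome 33 had the highest share of copies (6.78%, 4 of 59), and chromosome 8 followed (3.68%, 12 of 326). Of the 12 on chromosome 8, 8 lie in 1 mirrored stretch described below. Exon number ran from 4 to 22, and 21 arrays had at least 7 exons. In the 7 arrays with 4 exons the match rests on the lengths of 2 inner exons.

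Copies of a pair usually pointed the same way. In 24 of the 32 pairs (75%) both copies lay on the same strand, against 51.9% of 6617 pairs of adjacent genes that were no copies, with at least 4 exons, on the same chromosomes. Of the other pairs, 5 were convergent and 3 divergent. Among these, 4 lie in the mirrored stretch of chromosome 8, including all 3 divergent pairs, so they are not independent. Both copies were on the same strand in 6 of 10 pairs with mostly equal introns and in 18 of the 22 others. The gap between the copies of a pair had a median of 15237.5 bp and ran from 724 to 460782 bp, and adjacent genes had a median of 12033 bp. This pools unlike sets, with medians of 131416 bp in pairs with mostly equal introns and 8057 bp in the others. The word adjacent does not hold for every array. The copies had consecutive IDs in 21 arrays, and in 10 arrays at least 1 other gene of the table lay between them. The 15-exon pair on chromosome 6 at 2264562 had neither, as the IDs of the table skip numbers. Whether genes absent from the table lie between copies, or would be copies, was not tested.

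The copies were smaller than other genes of the same chromosomes. Their median exon number was 8, against 11 for the 7744 others. The median length of all exons of a gene together was 2009 bp against 3618 bp, and the median genomic span 7.82 kb against 22.8 kb. The rule asks fewer lengths to agree in genes with few exons, and its part in this difference was not tested. The inner exons were of ordinary size, with medians of 125 bp in copies and 124 bp in other genes. Of 468 inner exons of copies 38.5% had a length divisible by 3, against 40.4% in the other genes. Each length counts once per copy, although the rule makes it equal within an array, so the 468 are not independent.

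Intron lengths, which the rule does not use, split the arrays into 2 sets with none between when counted as equal to the base. In 10 arrays (20 genes) the best matched copies had 77.8% to 100% of their introns equal to the base, and in 6 of these all introns were equal. In the other 24 arrays (51 genes) at most 25% were equal, and 19 of them had no equal intron. The terminal exons followed the same split. The first exon was equal in 7 of the 10 arrays and in 1 of the 24, and the last exon in 6 of the 10 and in 0 of the 24. The split at over 50% of introns was chosen after the data were seen, and it depends on exact equality. In the 7-exon pair on chromosome 1 at 87808434, counted with the 24, 1 intron was equal. Others were close, with 519 and 515 bp, 941 and 935 bp, and 761 and 760 bp, while the first introns had 157 and 1284 bp.

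Most copies with mostly equal introns had few reads, while the other copies had a median level slightly above that of other genes and a wider spread. The median level of those 20 genes was 0.0751 RPKM in library B and 0.124 RPKM in library A. The 51 genes of the other arrays had medians of 13.3 RPKM in library B and 13.2 RPKM in library A. For the 7744 genes that were no copies the medians were 10.2 RPKM in library B and 10.1 RPKM in library A. Averaged over both libraries, the quartiles were 3.35 and 74.3 RPKM in the 51 copies and 4.32 and 23.1 RPKM in the genes that were no copies. Under 1 RPKM were 7.84% of the 51 copies and 4.69% of those genes. The groups overlapped, since the pair of 9-exon copies on chromosome 6 at 20524087 to 20556341 had 7 of 8 introns equal and 9.01 and 7.96 RPKM in library B, and 9.28 and 8.56 RPKM in library A. The other 18 genes of the 10 arrays were all under 5 RPKM, averaged over both libraries.

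Fewer than 10 reads over both libraries were counted for 7 of the 71 copies (9.86%, Clopper-Pearson 95% interval 4.06 to 19.3%), against 0.336% of the genes that were no copies. All 7 belonged to arrays with mostly equal introns, 7 of 20, and 3 of them had no read in either library. Of the 51 other copies 0 had so few reads, which allows a share of up to 6.98% by the same interval. Both intervals take each gene as an independent draw, but copies come in arrays, so they may be too narrow.

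**Figure D1:**
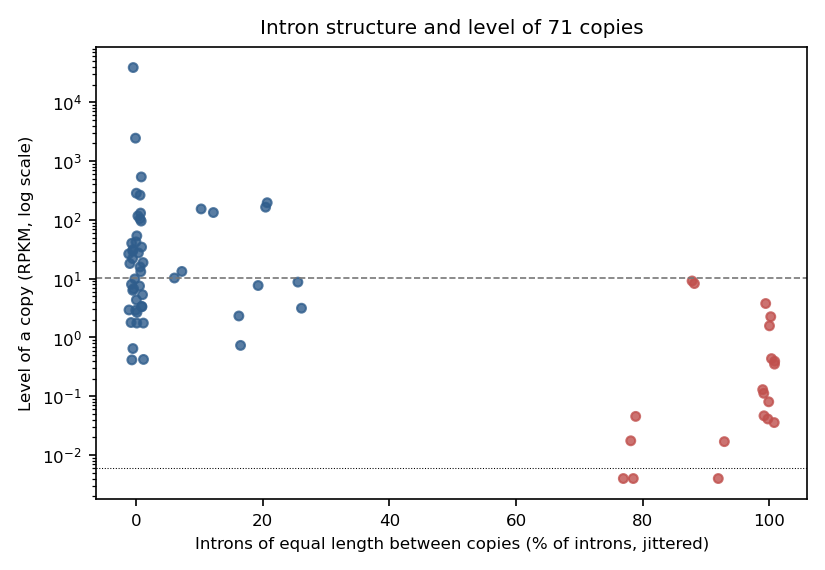
Level of each of the 71 copies (RPKM averaged over both libraries, log scale) against the share of introns of equal length in its array, in percent. Red points are copies of the 10 arrays with over 50% of introns equal and blue points the others, the dashed line is the median of genes that were no copies (10.1 RPKM), and points under the dotted line had 0 reads. The red points lie at 77.8% and above, all but the chromosome 6 pair under 5 RPKM.

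**Figure D2:**
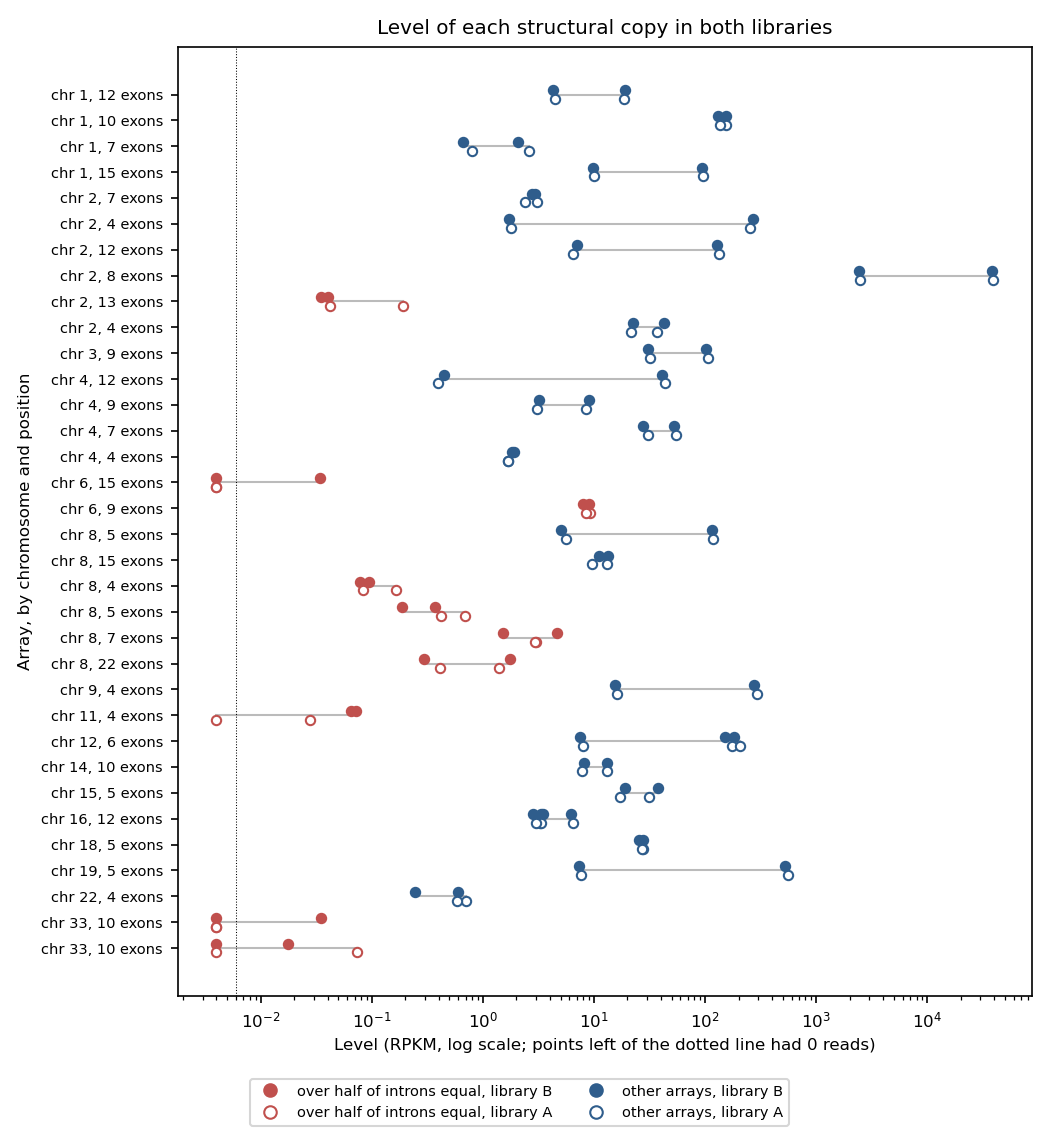
Level of every copy in RPKM (log scale), 1 row per array in the order of chromosome and position. Filled points are library B and open points library A, red marks arrays with over 50% of introns equal, grey lines join the lowest and highest values, and points left of the dotted line had 0 reads. Blue arrays span from near-equal copies to a 149-fold difference, with both libraries at nearly the same place.

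Copies of an array differed in level by folds that overlapped those of adjacent genes that were no copies. In 31 arrays a fold of the highest over the lowest copy could be given, and in the remaining 3 every copy had at most 3 reads. The median fold was 2.18, against 3.39 for the 6617 pairs of adjacent genes. Levels were at least 2-fold apart in 16 arrays (51.6%), against 70% of adjacent genes, and at least 4-fold apart in 11 of the 31 arrays (35.5%), near the 43.8% of adjacent genes. At least 10-fold apart were 8 arrays (25.8%), all with few equal introns, against 20.8% of adjacent genes. In the 24 arrays with few equal introns the median fold was 2.97, with 10 at least 4-fold apart (41.7%). In the 7 arrays with mostly equal introns that have a fold it was 1.61, with 1 at least 4-fold apart (14.3%).

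Across the 22 pairs with few equal introns Spearman's rho between the levels of the 2 copies was 0.38, against 0.058 across the pairs of adjacent genes. Across the 10 pairs with mostly equal introns it was 0.96, but in 3 of these every copy had at most 3 reads. Over all 32 pairs it was 0.75, which pools 2 sets of unlike level. Copies share exon lengths and both libraries, so these points are not independent. Among same-strand pairs with a fold, the copy that comes first in the direction of transcription had the higher level in 10 of 21, against 1731 of 3433 same-strand pairs of adjacent genes. The copy with more exonic sequence had more reads in 18 of the 27 pairs whose lengths differed, against 3676 of 6616 pairs of adjacent genes.

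**Figure D3:**
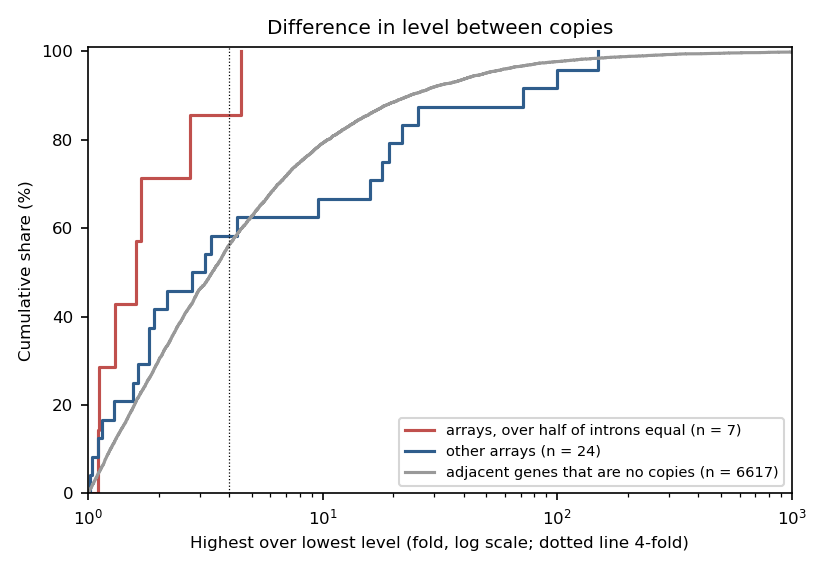
Cumulative share of arrays or gene pairs (in percent) against the fold of the highest over the lowest level (log scale). Red is the 7 arrays with over 50% of introns equal that have a fold, blue the 24 other arrays and grey the 6617 adjacent pairs, and the dotted line marks 4-fold. The blue and grey lines lie close together at 4-fold, where 41.7% and 43.8% lie at or beyond it.

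The widest difference was in a pair of 4-exon genes on chromosome 2 at 29808487 to 29822485, on the plus strand and 6.27 kb apart. Both have inner exons of 173 and 102 bp. The upstream copy had 272 RPKM in library B and 253 RPKM in library A, and the downstream copy 1.73 RPKM in library B and 1.78 RPKM in library A. The fold was 157 (105 to 236) in library B and 142 (84.6 to 287) in library A. Of its reads in library B 99.4% came from the upstream copy. The next gene on the chromosome, also with 4 exons but on the minus strand, had inner exons of 173 and 105 bp and 126 RPKM in library B and 129 RPKM in library A.

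On chromosome 4 at 3693004 to 3745689, a pair of 12-exon genes shares 10 inner exons but no intron length. One copy had 41.1 RPKM in library B and 43.3 RPKM in library A, and the other had 26 reads in library B and 11 in library A. The fold was 91.6 (53.4 to 172) in library B and 109 (45.7 to 273) in library A. The copies differ in their last exon, which has 1129 bp in the abundant copy and 115 bp in the other.

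On chromosome 19 at 4425466 to 4441549 the downstream of 2 genes with 5 exons had 518 RPKM in library B and 554 RPKM in library A. The upstream copy had 7.36 RPKM in library B and 7.64 RPKM in library A. The abundant copy is the shorter, with 737 bp of exon against 3230 bp, so in reads the difference was smaller, 16021 and 997 in library B and 8164 and 493 in library A. This array had the second highest summed level.

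The array of 3 copies lies on chromosome 12 at 12095119 to 12234362, with 6 exons each. The pair on the minus strand, 2.93 kb apart, had 183 and 152 RPKM in library B and 208 and 176 RPKM in library A. The third copy, 128 kb away on the opposite strand, had 7.42 RPKM in library B and 7.89 RPKM in library A. Its first exon has 1468 bp, against 185 and 147 bp in the abundant pair. The neighbouring copies were close in level, and the distant, inverted copy was 25.6-fold below the highest. In CPM the fold was smaller, 10.8, as the distant copy has 2177 bp of exon against 916 and 890 bp.

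Of the 8 arrays over 10-fold apart, 7 had a copy over 100 RPKM. On chromosome 8 at 12476872 to 12601972, 5-exon copies had 115 and 5.07 RPKM in library B and 118 and 5.60 RPKM in library A. On chromosome 2 at 67713038 to 67761380, 12-exon copies only 1.58 kb apart had 127 and 6.998 RPKM in library B and 134 and 6.53 RPKM in library A. On chromosome 9 at 19055934 to 19101435, 4-exon copies had 274 and 15.6 RPKM in library B and 294 and 16.1 RPKM in library A. In each of the 3 pairs both libraries gave the same order of the copies and like folds. They were 22.7 in library B and 21.1 in library A on chromosome 8, 18.2 in library B and 20.5 in library A on chromosome 2, and 17.6 in library B and 18.3 in library A on chromosome 9.

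The array with the highest level holds the most abundant gene of both libraries, Apl_2G0006690, on the minus strand of chromosome 2, and the next gene, within 79899466 to 79924591. Both have 8 exons with inner lengths of 185, 51, 129, 118, 143 and 156 bp and no equal intron. Apl_2G0006690 had 38534 RPKM in library B and 39135 RPKM in library A. Its copy had 2403 RPKM in library B and 2491 RPKM in library A and ranked 9 among all genes by level. The fold was 16.03 (15.9 to 16.1) in library B and 15.7 (15.6 to 15.9) in library A. All 71 copies held 8.92% of reads in library B and 9.01% in library A. Without this pair their share was 0.379% in library B and 0.391% in library A.

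In other arrays the copies had like levels. The narrowest fold was that of a 4-exon pair on chromosome 4 at 49693117 to 49712723, with 1.91 and 1.83 RPKM in library B and 1.68 and 1.68 RPKM in library A. The convergent 5-exon pair on chromosome 18 at 10512806 to 10524589, 1.01 kb apart, had 27.5 and 25.4 RPKM in library B and 27.2 and 27.4 RPKM in library A. The 7-exon pair on chromosome 2 at 28231089 to 28279920 had 2.80 RPKM in library B and 3.08 RPKM in library A for the upstream copy, and 2.95 RPKM in library B and 2.38 RPKM in library A for the downstream copy. In these 3 pairs the order of the copies by level was not the same in both libraries. In reads it was the same, since the copies differ in exon length. Reads were 103 and 80 in library B and 43 and 35 in library A on chromosome 4. On chromosome 18 they were 3256 and 2351 in library B and 1534 and 1205 in library A. On chromosome 2 they were 440 and 242 in library B and 231 and 93 in library A. Intervals of the fold spanned equal levels in both libraries on chromosomes 2 and 4, and in library A on chromosome 18. On chromosome 1 at 65636034 to 65672501, 10-exon copies were abundant and near equal, with 153 and 131 RPKM in library B and 153 and 135 RPKM in library A.

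The array of 4 copies lies on the minus strand of chromosome 16 at 9217286 to 9281901, with 12 exons each. The inner exons have 99, 161, 125, 130, 149, 188, 111, 102, 76 and 128 bp in all 4, while the last exon runs from 421 to 2316 bp. In the order of the chromosome the levels were 3.47, 3.34, 2.80 and 6.25 RPKM in library B and 3.29, 3.33, 3.01 and 6.42 RPKM in library A. The first 3 lay close together, and the fourth, the most upstream in the direction of transcription, was highest in both libraries. Its fold over the lowest copy was 2.23 (1.83 to 2.74) in library B and 2.13 (1.62 to 2.88) in library A. In library A it had 622 reads, and the others had 115 to 248. The order of those 3 differed between the libraries.

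The remaining arrays with few equal introns complete the set. A convergent 15-exon pair on chromosome 1 at 123918607 to 124025209 was 9.61-fold apart, with 94.3 and 9.82 RPKM in library B and 96.2 and 10.01 RPKM in library A. The lower copy has the longer last exon, 4598 bp against 1322 bp, and in CPM the pair was 4.45-fold apart. A 12-exon pair on the same chromosome at 21251497 to 21327037 had 18.99 and 4.27 RPKM in library B and 18.6 and 4.44 RPKM in library A. A 9-exon pair on chromosome 3 at 117858373 to 117878192 had 101.3 and 30.5 RPKM in library B and 107 and 31.6 RPKM in library A. In each of these pairs the same copy was higher in both libraries.

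Moderate folds in level were found in the others. A 7-exon pair on chromosome 1 at 87808434 had 2.06 and 0.665 RPKM in library B and 2.58 and 0.802 RPKM in library A. In reads it was further apart, with 281 and 40 in library B and 168 and 23 in library A, 7.18-fold in CPM. The first exon has 1916 bp in the higher copy and 85 bp in the other. A 5-exon pair on chromosome 15 at 7256388 has 6 genes of the table between its copies. It had 37.5 and 18.9 RPKM in library B and 31.3 and 17.3 RPKM in library A. In reads its order turns, with 1059 and 1239 in library B and 421 and 539 in library A, since the copy with the higher level has 673 bp of exon and the other 1563 bp. A 7-exon pair on chromosome 4 at 48219422 had 52.01 and 27.8 RPKM in library B and 54.7 and 30.9 RPKM in library A. By level these 3 folds were between 1.82 and 3.16. A convergent 4-exon pair on chromosome 2 at 159123407 was 1.82-fold apart, a 10-exon pair on chromosome 14 at 1800227 was 1.64-fold apart and a 15-exon pair on chromosome 8 at 26212481 was 1.29-fold apart. The higher copy of this last pair, the shorter, had 1134 reads against 1240 in library B, and 536 against 510 in library A. The lowest summed level among them was that of a 4-exon pair on chromosome 22 at 6193088, with 18 and 7 reads in library B and 10 and 8 in library A.

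Several arrays had near copies beside them. These are genes within 500 kb with the same exon number and at least 50% but not all of the inner lengths. There were 10, beside 9 arrays. They differed in 12 inner exons, and each of the 12 differences was a multiple of 3 bp. Their level was above both copies in 5 cases, between them in 2 and below them in 3.

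The gene that follows the abundant pair on chromosome 2 has 66 bp in place of 51 bp in the third exon, and it had 1119 RPKM in library B and 1157 RPKM in library A, below both. On chromosome 4 the gene beside the 9-exon pair at 10413352 to 10434814 has 102 bp in place of 123 bp. It had 131 RPKM in library B and 134 RPKM in library A, far above the copies, which had 8.94 and 3.22 RPKM in library B and 8.54 and 3.07 RPKM in library A. On chromosome 2 the gene before the near-equal 7-exon pair at 28231089 differs by 3 bp in 1 exon. It had 267 RPKM in library B and 283 RPKM in library A, far above the copies.

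Of the 10 arrays with mostly equal introns, 4 are nested in each other on chromosome 8 between 36262443 and 36756308, a stretch of 494 kb. Their pairs have 4, 5, 7 and 22 exons, and every intron is equal within each pair. The copies of each pair lie on opposite strands, and the midpoints of the 4 pairs fall within 12 bp of each other, so the stretch is laid out as a mirror image around a centre of 152 kb without a gene of the table. The layout was noticed after values were seen, and it goes on beyond the copies. Ordered outwards, 9 genes on each side face each other on opposite strands, 8 of the 9 pairs have the same exon number, and distances from the centre differ by at most 2.18 kb.

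**Figure D4:**
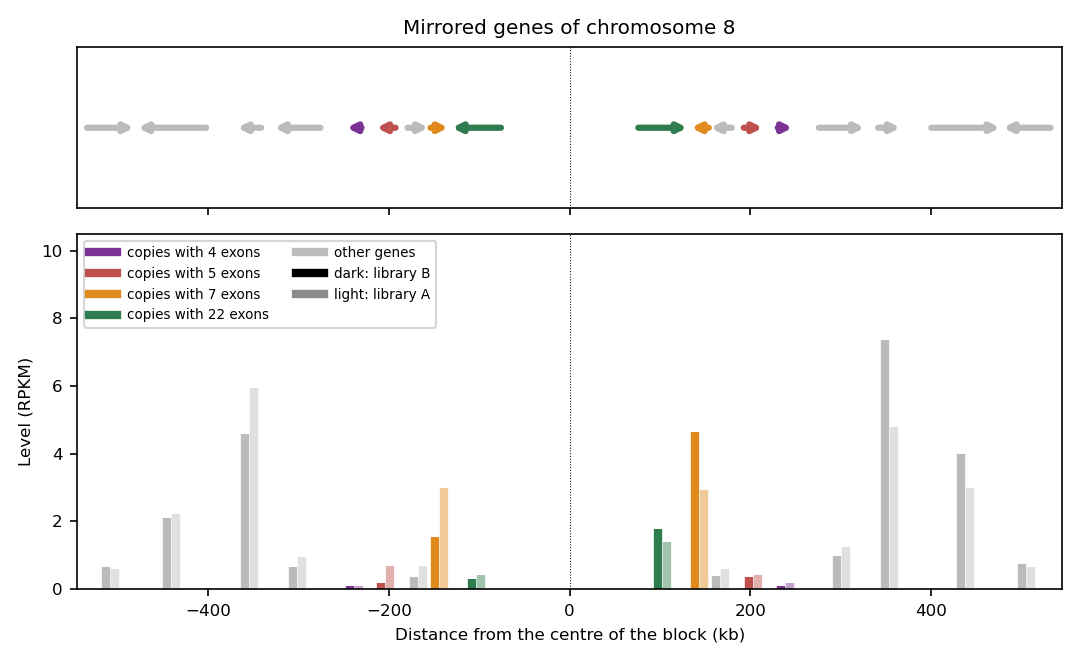
Genes of the mirrored stretch of chromosome 8 against distance from its centre in kb. Arrows above show the direction of transcription, and bars below give RPKM, dark for library B and light for library A, with the 4 pairs of copies in colour and other genes in grey. Coloured genes at equal distance left and right are copies of each other. The right 7-exon copy had 4.63 RPKM in library B and 2.93 RPKM in library A, and the left one 1.53 RPKM in library B and 2.98 RPKM in library A.

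Levels in the mirrored stretch were low, and the sides did not match. The 22-exon pair had 408 reads on the right and 69 on the left in library B, and 153 on the right and 45 on the left in library A. The 7-exon pair had 246 reads on the right and 82 on the left in library B, and 74 on the right and 76 on the left in library A. The 5-exon pair had 86 reads on the right and 43 on the left in library B, and 46 on the right and 76 on the left in library A. The 4-exon pair had 12 reads on the right and 10 on the left in library B, and 10 on the right and 5 on the left in library A. The copy with more reads thus lay on the right in all 4 pairs in library B and in 2 in library A.

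Summed over the 4 copies, the right side had 752 reads in library B and 283 in library A. The left side had 204 in library B and 202 in library A. Scaled for depth, the ratio of library B over library A was 1.27 (1.04 to 1.54) on the right and 0.481 (0.362 to 0.640) on the left. Over both sides it was 0.939 (0.805 to 1.10). The ratio was higher on the right in 3 of the 4 pairs of copies and in all 5 of the other mirrored pairs. In those 5, log2 ratios ran from -0.86 to 0.61, and the differences were uneven. Left and right had -0.37 and 0.61 in the 13-exon pair, but 0.12 and 0.18 in the outermost, 12-exon pair. No interval was computed for these 5 pairs. The intervals of the summed reads compare 2 libraries and say nothing of replicates. The labels do not give which animals entered which library, and whether reads that map to both sides bear on these values was not tested.

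Of the other arrays with mostly equal introns, the 9-exon pair on chromosome 6 described above had 1115 and 968 reads over both libraries, and the remaining 5 had few. On chromosome 33 a 10-exon plan with inner lengths of 148, 122, 66, 99, 106, 143, 88 and 41 bp occurs in 2 arrays, at 154585 to 195153 and at 9878232 to 9998487. The 4 genes had 2, 0, 1 and 0 reads in library B and 0, 0, 2 and 0 in library A. A 15-exon pair on chromosome 6 at 2264562 to 2728433, with all 15 exons equal and 13 of 14 introns equal, had 3 and 0 reads in library B and 0 and 0 in library A. A 13-exon pair on chromosome 2 at 106961337 to 107099707, equal in all exons and introns, had 7 and 8 reads in library B and 18 and 4 in library A. A 4-exon pair on chromosome 11 at 823815 to 899543 had 15 and 2 reads in library B and 3 and 0 in library A, although its first exons have 5084 and 307 bp. These counts do not show that the genes are silent, and reads that fit both copies are not in them.

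Copies differed little between the libraries, outside the arrays with mostly equal introns. Of 71 copies 62 had at least 10 reads in at least 1 library. Their median log2 ratio, B over A, was -0.04, against -0.00066 over all 11256 genes with as many reads. At least 2-fold apart were 2 of the 62 (3.23%), against 0.755% of all genes. These 2 had 119 and 25 reads over both libraries, and the comparison was not matched for read number. Both were higher in library A, as were 0.267% of all genes, and 0 were higher in library B, as were 0.489% of all genes. At least 4-fold apart was 1 copy, higher in library A, against 0.133% of all genes, with 0.0888% higher in library B and 0.0444% higher in library A. Among the 50 tested copies with few equal introns none was 2-fold apart, and their log2 ratios ran from -0.32 to 0.31.

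The 5 copies with the largest ratios among the 54 with at least 100 reads all lay in the mirrored stretch of chromosome 8. Apl_8G0005270, the left 5-exon copy, had 0.186 RPKM in library B and 0.689 RPKM in library A, a log2 ratio of -1.83. Apl_8G0005320, the right 7-exon copy, had a log2 ratio of 0.65. The left 7-exon copy had -0.94, the left 22-exon copy -0.44 and the right 22-exon copy 0.34. The other copy past 2-fold was the first of the 13-exon pair on chromosome 2, at a log2 ratio of -2.06 with 7 reads in library B and 18 in library A. It was also the copy past 4-fold. Its interval of library A over library B ran from 1.32 to 21.0, which includes 2-fold.

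**Figure D5:**
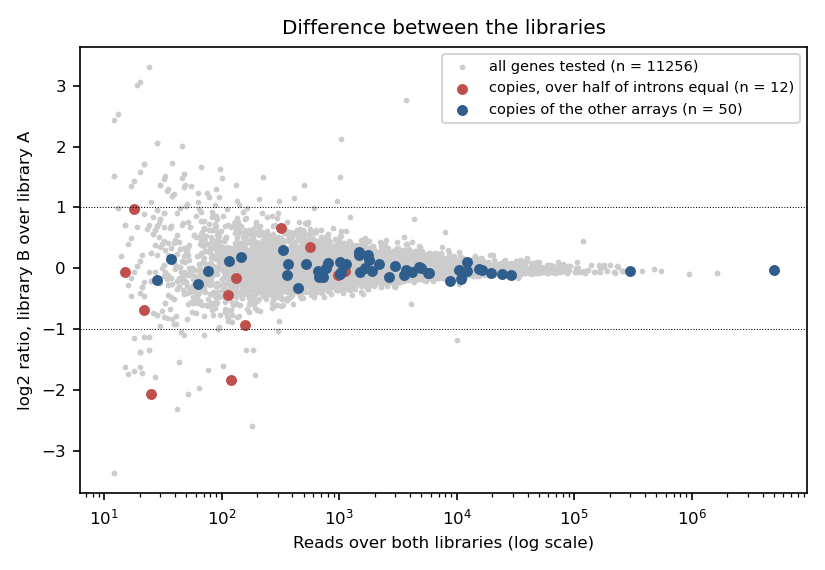
Log2 ratio (library B over A) against reads over both libraries (log scale) for all 11256 genes tested (grey), with the 12 tested copies of arrays with over 50% of introns equal in red and 50 other copies in blue. Dotted lines mark 2-fold. Blue points stay between -0.32 and 0.31, and red points spread from -2.06 to 0.98, at fewer reads.

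The division of reads between copies was nearly the same in both libraries for arrays with few equal introns. By level, the highest copy was the same in both libraries in 21 of these 24 arrays, whereas 97.9% of adjacent pairs kept their order. The exceptions were the near-equal pairs on chromosomes 2, 4 and 18 described above, whose order in reads was the same in both libraries. Over all 31 arrays with a fold, the highest copy was the same in 24 by RPKM and in 27 by CPM. In the 22 such arrays with at least 100 reads in library A, the share of reads from the highest copy shifted by a median of 0.504 percentage points and at most by 6.78. Among arrays with mostly equal introns, the highest copy was the same in 3 of 7.

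The 4 of those with at least 100 reads in library A shifted by 1.08 to 29.0 percentage points. The left 5-exon copy held 33.3% (22.6 to 46.6%) of its pair's reads in library B and 62.3% (48.96 to 74.4%) in library A. The right 7-exon copy held 75% (67.7 to 81.4%) in library B and 49.3% (37.6 to 61.1%) in library A. Depth moves with this, as the chromosome 8 pairs had 122 to 198 reads in library A. Among 85 pairs of adjacent genes with 100 to 200 such reads the median shift was 3.51 percentage points and the highest 18.4.

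The distance limit passed between pairs of like kind. The widest gap inside it was 461 kb, of the outermost 4-exon pair in the mirrored stretch, with 12 and 10 reads in library B and 10 and 5 in library A. The nearest pair outside had a gap of 620 kb on chromosome 33, 16 exons and 93.3% of introns equal, with 12 and 1 reads in library B and 3 and 0 in library A. Of the 13 neighbouring pairs of 1 exon plan beyond the limit, 5 were on chromosome 8. The smallest chromosome inside the size limit was chromosome 25, whose last gene ends at 10.03 Mb and which had no array, and the largest outside was chromosome 27 at 9.36 Mb.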

How the data were processed

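Gene expression was measured by RNA-seq in 2 libraries, with RNA from an RNeasy kit and SMARTER library preparation per the labels' protocols. The authors deposited, for each gene, the raw count of reads on its exons, from featureCounts 2.1.1 in paired-end mode per the file headers. The command has no option for strand, read pairs, multi-mapping or overlapping genes, so mates count separately and a read with several placements is left out. Exon lengths and gene length, another value of the deposited files, are in bp per the file headers. The submitters' processing notes name HISAT2 and SAMtools and give no version, and the name of the build is not given in the sources used here.

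Counts were scaled by the TMM method (edgeR 4.0.16, run in R 4.3.3), with DESeq2 1.42.0 size factors as an alternative. Log2 ratios used a prior count of 2 and left out genes with under 10 reads in both libraries. Inner exon lengths were read in the order of transcription. Level is RPKM averaged over both libraries unless a library is named, and a copy at 0 was set to 3 reads for folds. Intervals are exact binomial, from counts halved to pairs, or from genes for the share of copies with under 10 reads. Those of medians come from the ranks of the values. No test across samples was possible with 1 library per label.

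Arrays named in the text were those of 4 or more copies, the 5 of highest summed level, the 8 of widest and 5 of narrowest fold (highest copy at least 100 reads, all copies with reads) and those at the distance limit. Arrays with a copy at 0 beside one of at least 100 reads were also to be named, and there were 0. The 5 copies with the largest library ratios were named as well. The near copies, the remaining arrays with mostly equal introns and their split were chosen after values were seen. The members and lists were chosen with earlier results of these data known. Recovery of arrays and folds was tested on simulated data. Planted copies had equal inner exon lengths and lost no reads to several placements, so this checked the computation only.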

Additional observations from a re-analysis of the deposited data

How the results depend on the processing

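In 86 of 107 alternatives a value stayed within a set range, and in 21 it moved. The range was a factor of 1.5 for counts and the interval of the reported value for others. Some intervals are wide. With a limit of 1 Mb the median level was 3.78 RPKM, against 6.76 RPKM as reported (2.91 to 13.1). On autosomes of at least 30 Mb 4.35% of copies had under 10 reads, against 9.86%. Both count as within range. Only the median log2 ratio could change sign, and it stayed negative in every alternative. With at least 6 exons there were 47 copies in 22 arrays, 7 of them at least 4-fold apart, and on autosomes of at least 30 Mb 46 copies, because fewer genes qualify. When the first or last exon also had to match, 18 copies in 9 arrays were left, with 1 array at least 4-fold apart, 3 with the same highest copy in both libraries, a median level of 0.0637 RPKM, 38.9% under 10 reads and a median log2 ratio of -0.11. Such arrays are mostly those with equal introns. The number of copies 2-fold apart between libraries, 2 as reported, was 1 with a limit of 100 kb, 4 with 1 Mb, 1 with at least 6 exons, 1 on the same strand, 4 with no minimum of reads and 1 with at least 50 reads. Without the arrays with mostly equal introns, an alternative chosen after seeing the data, it was 0, with a median level of 13.3 RPKM and 0% under 10 reads. The median level was 15.8 in CPM, which is another scale. The number of arrays at least 4-fold apart was 11 as reported and 13 in CPM, 16 were 2-fold apart, and 9 were 4-fold apart by the nearer bound of the interval. The same highest copy in a single library was not run, since it needs both. No paired analysis was possible because there is 1 library of each kind. Read depth limits copies with few reads, and 9 of 71 were not tested between libraries.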
